A study of Mus musculus with 4 samples.

Results

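Haem is made in animal cells by a chain of enzymes that begins and ends in the mitochondrion, and 8 genes of that chain were followed here in mouse muscle stem cells: Alas1, Alas2, Alad, Uros, Urod, Cpox, Ppox and Fech. They were taken by gene symbol from the 55487 genes in the deposited tables. All 8 were among the 38143 genes that passed the filter on low counts. Alas2 was selected on its counts, because they were higher in these same knockout libraries, so its values are a description with no test. The other 7 were picked for their place in the pathway, and the comparison asked whether they moved with Alas2.

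The samples were 4 libraries of freshly isolated satellite cells, which are the resident stem cells of muscle and express Pax7: 2 Control and 2 Rbfox2 conditional knockout (cKO). The cKO mice carried floxed Rbfox2 alleles and Pax7CreERT2, a Cre recombinase made in Pax7-expressing cells and switched on by tamoxifen, and a Rosa26 EYFP allele that marks recombined cells. The sources used here do not give the ages of the mice, or whether the Control mice carried the Cre or the reporter or received tamoxifen. Nothing in the labels ties each library to its own animal, so the p-values cover only the spread between these samples, and that spread may be technical.

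The chain starts when 5-aminolevulinate synthase joins glycine to succinyl-CoA in the mitochondrion. Alas1 encodes the form of that enzyme found in most cells and is held in check by haem itself, and Alas2 encodes the form of developing red cells, which make haem for haemoglobin. Alad, Uros and Urod act in the cytosol on the way to coproporphyrinogen, and Cpox, Ppox and Fech bring the product back into the mitochondrion, where ferrochelatase (Fech) inserts iron. GATA factors bind the sequence AGATAA or TGATAA and drive many red cell genes, Alas2 among them.

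The sequence just before the start of a gene is shown for 3 members that are described below. Alas2 was the member that was higher in cKO, Cpox has a GATA-type match and Ppox has none. The sequences are RefSeq's on GRCm38.p6, read 5′ to 3′ on the strand of the gene and limited to bases outside annotated exons: chrX:150547167-150547374, plus strand, for Alas2, chr16:58669958-58670207, plus strand, for Cpox and chr1:171281187-171281436, minus strand, for Ppox. The Alas2 stretch stops short of its RefSeq start, chrX:150547417, because the bases between lie in an annotated exon. Positions given below count from that start. Capitals mark matches to AGATAA or TGATAA on either strand.
Alas2: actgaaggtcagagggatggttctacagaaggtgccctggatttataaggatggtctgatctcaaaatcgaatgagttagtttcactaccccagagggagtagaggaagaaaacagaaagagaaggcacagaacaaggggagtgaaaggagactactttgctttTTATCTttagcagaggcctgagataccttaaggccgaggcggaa
Cpox: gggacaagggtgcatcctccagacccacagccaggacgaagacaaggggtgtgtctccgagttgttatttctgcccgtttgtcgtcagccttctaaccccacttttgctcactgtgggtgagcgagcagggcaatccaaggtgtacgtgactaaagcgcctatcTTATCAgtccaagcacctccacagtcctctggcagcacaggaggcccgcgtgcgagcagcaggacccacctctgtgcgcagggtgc
Ppox: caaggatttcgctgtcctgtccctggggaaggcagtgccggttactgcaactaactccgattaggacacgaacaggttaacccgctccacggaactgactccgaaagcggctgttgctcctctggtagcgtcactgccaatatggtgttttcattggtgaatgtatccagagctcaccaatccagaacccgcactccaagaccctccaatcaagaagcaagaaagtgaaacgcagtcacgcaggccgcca

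The table of RefSeq starts held 7 of the 8 members, all but Fech. In the 250 bases before the start, Alas2 had AGATAA on the opposite strand at positions -86 to -81 from its start, and Cpox had TGATAA on the opposite strand at the same positions. Uros had TGATAA before 1 of its 2 starts, at positions -68 to -63. AGATAA or TGATAA was found in 16.6% of all 32851 windows of this length. CCACACCC (KLF1) and TGAGTCA (NFE2 and AP-1), searched on both strands, were in none of the members' windows and in 3.2% and 4.46% of all windows. A non-palindromic form of the NRF1 motif was in none and in 0.843% of all windows. The palindromic form, a search chosen after seeing the data, was before 1 of the 2 starts of Alas1, at positions -195 to -186, and in 0.782% of all windows. The loop and bulge of an iron-responsive element was searched on the sense strand of the 50 bases after the start. It was in no member's window and in 1.55% of all windows. Bases beyond those 50 were not searched, so this does not show that any member, Alas2 included, lacks the element. All matches given here are letter matches only.

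Total estimated counts ranged from 68884091 to 101997422 per library. Rbfox2, the targeted gene, had a normalised count (TMM-scaled CPM) of 131.3 in Control 1, 55.98 in Control 2, 40.04 in cKO 1 and 15.17 in cKO 2. The satellite cell markers were present: all 12 were tested, and Myod1 and Pax7 averaged 2662 and 24.6 CPM in the Control libraries, against 2703 and 44.1 CPM in cKO. cKO 1 had a higher low-level background, with a median TPM over all genes of 0.771 against 0.312 to 0.437 in the other 3 libraries. In edgeR's quasi-likelihood test with Benjamini-Hochberg adjustment, 139 genes rose and 71 fell in cKO, or 0.364% and 0.186% of those tested.

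Among the 7 enzymes other than Alas2, 0 rose and 0 fell, against 0.551% of all genes called in either direction, and 0 passed an unadjusted p of 0.05, against 4.83% of all genes. For all 7 the Control and cKO libraries overlapped in CPM. Over all genes tested, the cKO libraries were both higher than the Control libraries for 18.0% and both lower for 13.3%. The log2 fold changes of the 7 ran from -0.27 for Alad to 0.46 for Ppox, with a median of 0.05 against 0.06 over all genes tested. Of the 7, 4 were positive and 3 negative, and 20993 of the 38143 genes tested were positive. Among the 10579 genes whose mean reached 4 CPM, 4524 were positive and the median was -0.06, and 5 of the 7 enzymes lay above that median. The 7 remained at 0 called in each of the 11 other settings of the count test that were run, 4 of which left out a library, but the stricter filter, which asks for 5 CPM in at least 2 libraries, tested only 5 of them and not Uros or Cpox. At an unadjusted p of 0.05, 2 of them passed without cKO 1, 2 with library totals only and 1 under the stricter filter.

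**Figure D1:**
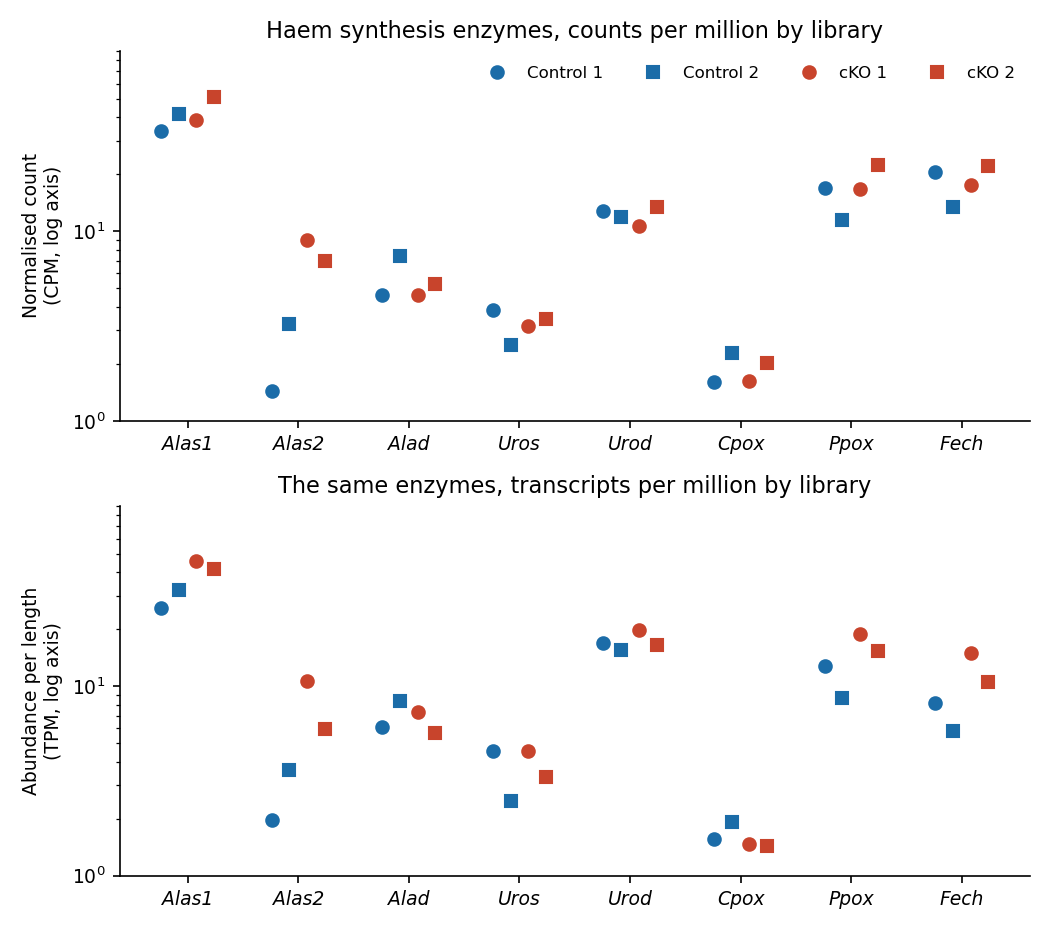
Values of the 8 haem synthesis enzymes in each of the 4 libraries, as TMM-scaled CPM (upper panel) and as deposited TPM (lower panel), both on log axes, with Control in blue and cKO in red. In the upper panel only Alas2 has both cKO points (9.06 and 6.95 CPM) above both Control points (1.44 and 3.25 CPM).

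The synthase that starts the chain is encoded by 2 genes, and they differed in level and in pattern. Alas2 (ENSMUSG00000025270.13; GRCm38 chromosome X, 150547375 to 150570638, plus strand) had 1.44 CPM in Control 1, 3.25 in Control 2, 9.06 in cKO 1 and 6.95 in cKO 2. Both cKO libraries were above both Control libraries, and Control 1 was the lowest of the 4. The group means were 2.34 ± 1.28 and 8.005 ± 1.497 CPM (SD, n = 2 each), and the fitted log2 fold change was 1.77. It ranged from 1.28 without Control 1 to 2.45 without Control 2. These values rest on 114, 268, 789 and 620 estimated counts in the 4 libraries. The value without cKO 1, the library with the higher background, was 1.58.

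Alas1 (ENSMUSG00000032786.16; chromosome 9, 106233455 to 106248654, minus strand) was the most abundant member. It had 33.99 CPM in Control 1, 41.8 in Control 2, 38.56 in cKO 1 and 51.49 in cKO 2. The groups overlapped, since cKO 1 lay below Control 2. The log2 fold change was 0.25 (SE 0.33, edgeR adjusted p = 1.00), and its 95% interval of fold ran from 0.758 to 1.86. It was -0.04 without cKO 2. Per length, the share of Alas2 in the summed TPM of Alas1 and Alas2 was 7.08% in Control 1, 10.1% in Control 2, 18.8% in cKO 1 and 12.6% in cKO 2. Alas1 therefore remained the larger part of the synthase transcripts in every library.

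In bulk RNA a higher level per cell and more cells of a type cannot be told apart, which holds for every value here. The last part of Alas2 also lies over another gene. Of its 2403 annotated exon bases, 311 (12.9%) overlap exons of Apex2, a DNA repair gene on the opposite strand, and the sources used here do not say whether the counting used strand. Apex2 had 14.1 CPM in Control 1, 9.75 in Control 2, 9.86 in cKO 1 and 13.1 in cKO 2, so its groups overlapped (log2 fold change -0.05, SE 0.32). Control 1, the lowest library for Alas2, was the highest for Apex2. The part of Apex2 reads in the counts of Alas2 was not tested. Of the 50-base stretches of Alas2 transcripts, 11.5% occurred in transcripts of another gene, and these were Apex2 and Mir3620, with none in Alas1.

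The 3 cytosolic enzymes showed overlapping groups. Alad (chromosome 4, 62509169 to 62519918), which joins 2 molecules of aminolevulinate into the pyrrole porphobilinogen, had 4.63 CPM in Control 1, 7.37 in Control 2, 4.64 in cKO 1 and 5.30 in cKO 2. Control 2 was the highest library and the other 3 lay close together. Its log2 fold change was -0.27 (SE 0.34, edgeR adjusted p = 1.00), and it was 0.08 without Control 2. Uros (chromosome 7, 133686243 to 133710072), which closes the porphyrin ring in the natural isomer, had 3.87 CPM in Control 1, 2.51 in Control 2, 3.16 in cKO 1 and 3.43 in cKO 2. Both cKO libraries lay between the 2 Control libraries. The log2 fold change was 0.05 (SE 0.37), with -0.02 under DESeq2 size factors, and its interval of fold was 0.626 to 1.70.

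Urod (chromosome 4, 116989965 to 116994413), which removes carboxyl groups from the ring, had the tightest Control libraries, at 12.8 and 11.85 CPM, against 10.7 and 13.5 CPM in cKO 1 and 2. The cKO libraries lay on either side of both Control libraries. The log2 fold change was -0.03 (SE 0.32, edgeR adjusted p = 1.00), turning to 0.12 with library totals only, and the interval of fold was 0.636 to 1.52. A rise of 2-fold lay outside the intervals of both Uros and Urod in the count test with all 4 libraries. In that test it did so for each of the 7 enzymes except Ppox. No intervals were computed on the TPM scale, given below, where the log2 fold change of Fech was 0.78 (SE 0.24).

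The 3 enzymes of the last mitochondrial steps differed more from each other. Cpox (chromosome 16, 58670292 to 58717636), which oxidises coproporphyrinogen, had the lowest mean of the members, though Alas2 was lower in Control 1. It was at 1.60 CPM in Control 1, 2.29 in Control 2, 1.62 in cKO 1 and 2.02 in cKO 2. Both cKO libraries lay inside the Control range. The log2 fold change was -0.10 (SE 0.44), turning to 0.04 with library totals only, and its interval of fold, 0.515 to 1.69, rests on 127 to 189 estimated counts per library. On the TPM scale, given below, both cKO libraries were under both Control libraries, at 1.47 and 1.44 against 1.56 and 1.93 TPM.

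Ppox (chromosome 1, 171275990 to 171281186), which makes protoporphyrin from its reduced form, had the highest log2 fold change of the 7. It had 16.96 CPM in Control 1, 11.6 in Control 2, 16.7 in cKO 1 and 22.4 in cKO 2. The groups overlapped because cKO 1 lay just below Control 1. The log2 fold change was 0.46 (SE 0.32, edgeR adjusted p = 1.00), with an interval of fold of 0.886 to 2.12, and leaving out a library moved it between 0.16 and 0.75. Of the exon bases of Ppox, 17.5% overlap B4galt3, a galactosyltransferase gene on the opposite strand, at 21.8, 20.9, 16.4 and 24.0 CPM in Control 1, Control 2, cKO 1 and cKO 2 (log2 fold change -0.08, SE 0.32).

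Fech (chromosome 18, 64452914 to 64490251), the ferrochelatase, had 20.7 CPM in Control 1, 13.5 in Control 2, 17.6 in cKO 1 and 22.3 in cKO 2. Again cKO 1 lay between the Control libraries and only cKO 2 was above both. The log2 fold change was 0.22 (SE 0.32, edgeR adjusted p = 1.00), with an interval of fold of 0.754 to 1.81, and was -0.07 without Control 2 and -0.02 without cKO 2. Across the 7 enzymes the highest upper limit in the count test was 2.12-fold, for Ppox. In simulated data drawn from these libraries, 2-fold changes were called in 8% of cases and 4-fold changes in 77%, so a change of 2-fold or less was mostly not detectable here.

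**Figure D2:**
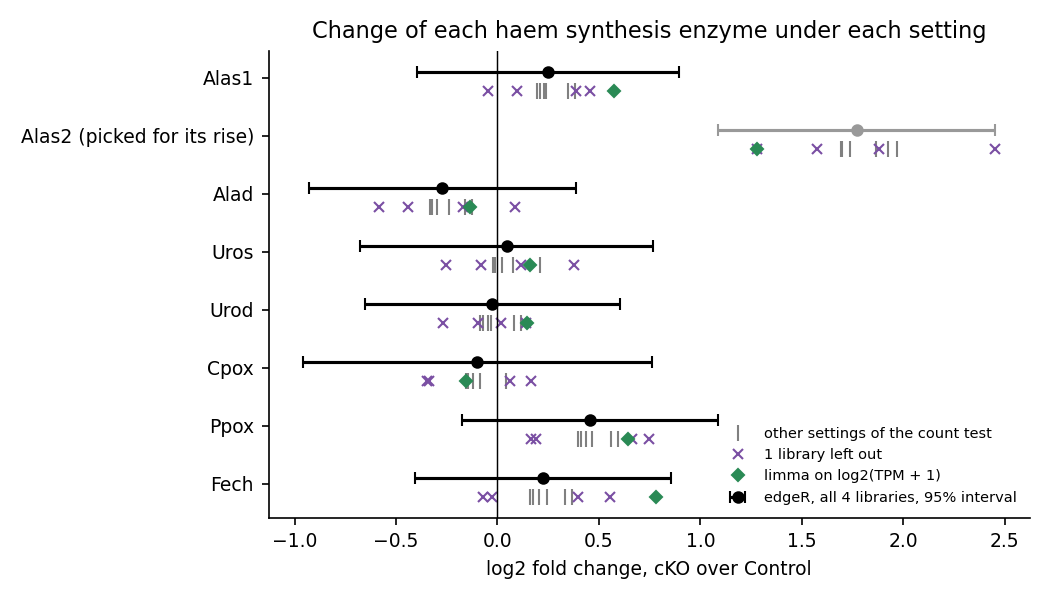
Log2 fold change of each enzyme, cKO over Control. Circles with bars are edgeR estimates with 95% intervals, and the marks beneath show each alternative. Alas2, in grey, was picked for its rise in these same libraries, so its bar is not a test. The intervals of the 7 other enzymes include 0, and their values stay between -0.58 and 0.78 under the alternatives, while those of Alas2 lie between 1.28 and 2.45.

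Per length, the order of the enzymes could be compared within a library. Alas1 was highest in all 4 libraries, followed by Urod and Ppox, and Cpox was lowest in all 4. Alas1 averaged 29.1 ± 4.46 TPM in Control and 43.7 ± 3.18 TPM in cKO, and Cpox 1.75 ± 0.26 and 1.46 ± 0.02 TPM (SD, n = 2 each). Urod and Ppox, neighbours in this order, overlapped in TPM across the 4 libraries. Alas2 was at place 7 of 8 in Control 1 and place 6 in Control 2, at 1.98 and 3.61 TPM, and at place 5 in both cKO libraries, at 10.7 and 5.97 TPM. It thus passed Alad, at 7.35 and 5.64 TPM in cKO 1 and 2, though in cKO 2 the 2 genes lay close together.

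On the TPM scale 3 of the 7 enzymes were higher in both cKO libraries than in either Control library, against 32.0% of the 17210 genes compared on that scale, and 1 had both below, against 15.7%. The 3 were Alas1, Ppox and Fech, and the 1 was Cpox. Fech had 8.19 TPM in Control 1, 5.78 in Control 2, 14.9 in cKO 1 and 10.6 in cKO 2, so groups that overlapped in CPM were apart in TPM. Alas1 had 25.97 TPM in Control 1, 32.3 in Control 2, 45.9 in cKO 1 and 41.4 in cKO 2. Ppox had 12.8 TPM in Control 1, 8.67 in Control 2, 18.9 in cKO 1 and 15.4 in cKO 2. In limma on log2(TPM + 1) none of the 7 passed, against 0.308% of all genes, and the fold changes on that scale were 0.78 for Fech (SE 0.24, adjusted p = 0.204), 0.58 for Alas1 (SE 0.16, adjusted p = 0.177) and 0.64 for Ppox (SE 0.22, adjusted p = 0.242). Over genes whose mean reached 4 CPM, the median log2 change was 0.14 higher on the TPM scale than in edgeR.

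The scales also differed with transcript length. The ratio of count to TPM, scaled on genes with a single transcript, gives the mean length of the transcripts to which a gene's reads were assigned. For Fech, with 15 annotated transcripts from 495 to 6571 bases, this implied length was 4240 bases in Control 1, 3962 in Control 2, 2681 in cKO 1 and 3282 in cKO 2. For Alas1 it was 2195 and 2202 bases in the Control libraries, against 1904 and 1937 bases in cKO. For Alas2 it went the other way, from 1218 and 1530 bases in Control to 1930 and 1814 bases in cKO, and the TPM ratio of the group means was 2.97, against a fitted 3.41-fold in counts. Cpox also had longer implied lengths in both cKO libraries, and the remaining 4 members overlapped. Of 9505 genes with several transcripts and over 200 counts in every library, 26.3% had both cKO libraries below both Control libraries in implied length and 12.8% had both above, so such shifts were common. Which transcripts were used cannot be read from gene totals.

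**Figure D3:**
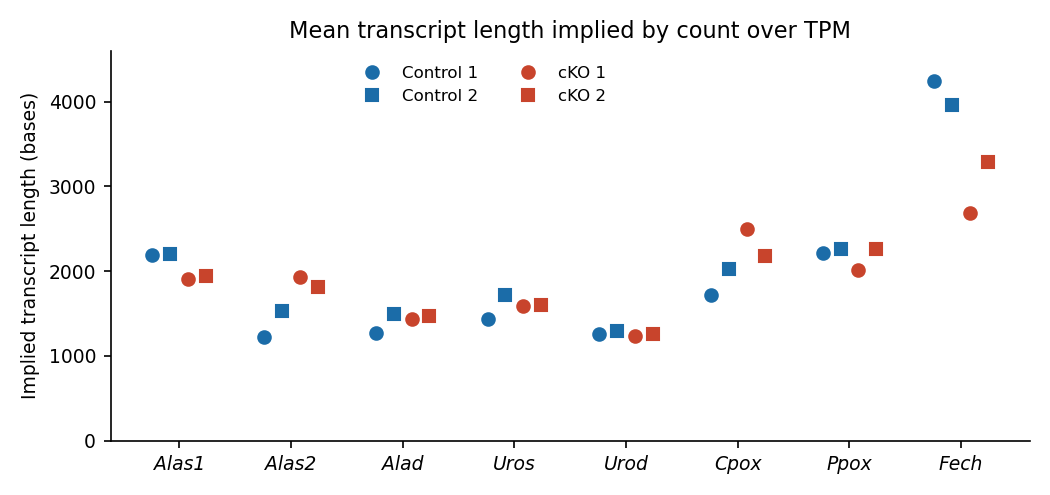
Mean transcript length in bases implied by the ratio of count to TPM for each enzyme, with Control in blue and cKO in red. Fech falls from 4240 and 3962 bases in Control to 2681 and 3282 bases in cKO, and Alas2 lies higher in cKO.

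Haem synthesis depends on carriers that bring in glycine and iron and on factors that set the level of the synthase. Of 19 such genes tested, 1 rose, 0 fell and 18 did not pass, while 0.364% of all genes tested rose and 0.186% fell. The median log2 fold change of the 19 was -0.19 against 0.06 over all genes. The 1 that rose was Lonp1, the mitochondrial protease that degrades the Alas1 protein among other substrates. It had 20.9 CPM in Control 1, 30.4 in Control 2, 65.2 in cKO 1 and 59.8 in cKO 2. Both cKO libraries were above both Control libraries, with a log2 fold change of 1.28 (SE 0.34, edgeR adjusted p = 0.0301). Lonp1 was called in 2 of 10 alternatives, those without cKO 1 and without cKO 2, and stood at 1.03 without Control 1 (adjusted p = 1.00). Of the same 19 genes, 15 were negative, and 4 had both cKO libraries below both Control libraries. Both were below for 13.3% of all genes tested, and for 2394 of the 10579 genes whose mean reached 4 CPM. Of all 38143 genes tested 17150 were negative, and of the 10579 whose mean reached 4 CPM 6055 were, with a median of -0.06. Among genes chosen after their values were seen, the glycine carrier Slc25a38 had a log2 fold change of -0.10, the iron importer Slc25a37 of 0.05 and Clpx, which activates the synthase, of -0.21.

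Iron-sulfur cluster assembly supplies cofactors in the same organelle and had 0 of 14 tested genes called, with a median of -0.15. The most abundant were Hspa9, a mitochondrial chaperone (-0.65), Isca1 (-0.33) and the scaffold Iscu (-0.18). Hspa9 had 1318 CPM in Control 1, 1238 in Control 2, 606 in cKO 1 and 1024 in cKO 2, so both cKO libraries were below both Control libraries, with cKO 1 the lowest. It was called in 2 of 10 alternatives, with library totals only (-0.55, edgeR adjusted p = 0.0370) and without cKO 2 (-1.15, adjusted p = 0.000918), and its log2 fold change was -0.31 without cKO 1. Isca1 turned to 0.32 without Control 2 and Iscu to 0.08 without cKO 1.

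Iron uptake, storage and control had 0 of 21 tested genes called and a median of -0.02. The ferritin chains Fth1 and Ftl1, which store iron, were the most abundant, at 1866 ± 168 and 1661 ± 475 CPM in Control and 1958 ± 198 and 1730 ± 439 CPM in cKO (SD, n = 2 each), with log2 fold changes of 0.07 and 0.06. Each of the 2 turned negative in 2 of the 4 settings that left out a library. The iron oxidase Cp had a log2 fold change of -0.23, with -0.60 without cKO 2 (edgeR adjusted p = 0.0356, its 1 call in 10 alternatives) and 0.03 without cKO 1.

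Of 15 tested genes of haem breakdown, export and sensing, 0 rose and 1 fell, while 0.364% of all genes tested rose and 0.186% fell. The list had a median of 0.02. The 1 that fell was Hebp1, a haem-binding protein, at 6.88 CPM in Control 1, 7.19 in Control 2, 2.07 in cKO 1 and 2.86 in cKO 2. Both cKO libraries were well below both Control libraries, and the log2 fold change was -1.51 (SE 0.35, edgeR adjusted p = 0.00527). Hebp1 was called in 4 of 10 alternatives and among the calls lost were those without Control 1 (-1.56, adjusted p = 0.941) and without Control 2 (-1.499, adjusted p = 0.907). Hmox1, the haem oxygenase that opens the ring, was chosen after its values were seen, and had 1031 CPM in Control 1, 1553 in Control 2, 1650 in cKO 1 and 3660 in cKO 2. The lowest cKO library was close to the highest Control library (log2 fold change 1.04, SE 0.40, edgeR adjusted p = 0.521).

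**Figure D4:**
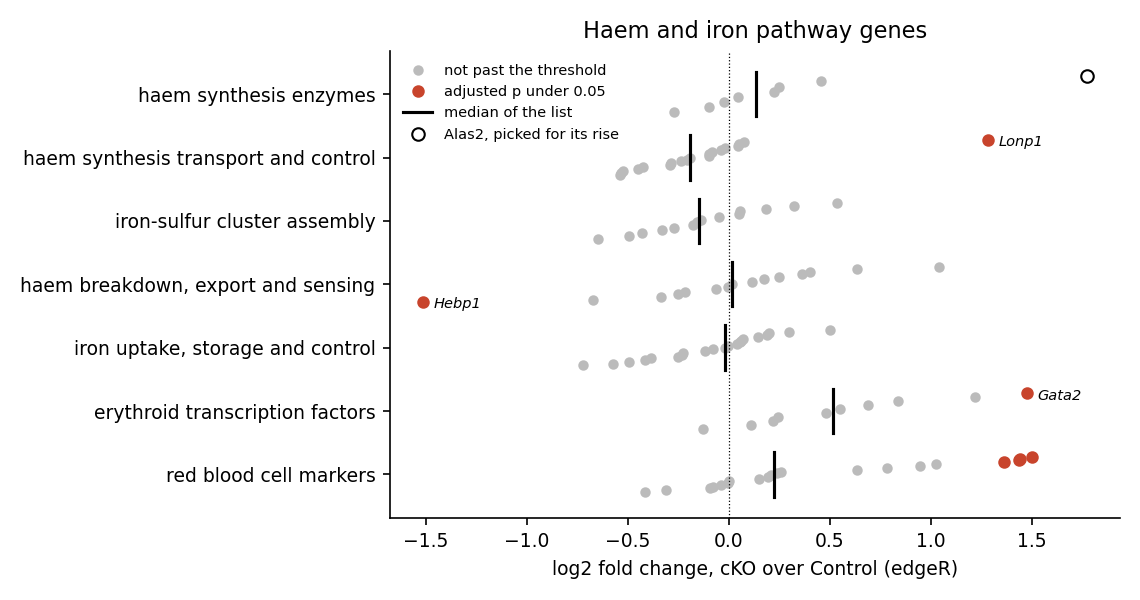
Log2 fold change, cKO over Control, of every tested gene in the haem synthesis list, the 5 related lists and the red blood cell markers. Red points passed the threshold, the open point is Alas2, and bars mark list medians. The enzymes other than Alas2 lie between -0.27 and 0.46.

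Alas2 is a gene of developing red cells, so its level was set beside red cell markers. Of 20 tested markers 4 rose, 0 fell and 16 did not pass, while 0.364% of all genes tested rose and 0.186% fell. Their median log2 fold change was 0.22, against 0.06 over all genes. In CPM 7 of the 20 had both cKO libraries above both Control libraries, against 18.0% of all genes tested. For 1 of the 20 both were below, against 13.3%. The 4 that rose were the adult globin genes Hba-a1, Hba-a2, Hbb-bs and Hbb-bt, which encode the chains of haemoglobin. They are near-identical in pairs, so the division of reads between copies is uncertain. Hba-a1, the most abundant, had 50.8 CPM in Control 1, 98.4 in Control 2, 180.7 in cKO 1 and 202.4 in cKO 2. The 4 globin genes shared the order of groups with Alas2, Control 1 lowest and Control 2 next, but in CPM cKO 2 was their highest library and cKO 1 that of Alas2. In TPM cKO 1 was the highest library for each of the 4, as for Alas2. Their log2 fold changes were between 1.36 for Hba-a1 and 1.499 for Hbb-bt (edgeR adjusted p from 0.00445 to 0.0286), and 0 of the 4 was called in any of 10 alternatives. Hba-a2 moved most, from 0.86 without Control 1 to 2.35 without Control 2.

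The summed globin TPM was 334 in Control 1, 759 in Control 2, 1788 in cKO 1 and 1465 in cKO 2. Per 1000 globin TPM, Alas2 had 5.92 TPM in Control 1, 4.76 in Control 2, 5.96 in cKO 1 and 4.07 in cKO 2, so this ratio overlapped between the groups. The range over all red cell markers together was 402 to 829 summed TPM in Control and 1532 to 1880 in cKO, most of it globin. The part of red cell RNA in the level of Alas2 was not tested.

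Some other red cell genes were at or near 1 CPM or less in all 4 libraries. Slc4a1, which exchanges chloride and bicarbonate across the cell membrane, had 1.11 CPM in Control 1, 0.910 in Control 2, 1.18 in cKO 1 and 0.784 in cKO 2. Rhag and Hemgn were also under 1 CPM everywhere. None of these 3 separated the groups, and in each the cKO 2 library was below cKO 1, the library with the higher background.

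**Figure D5:**
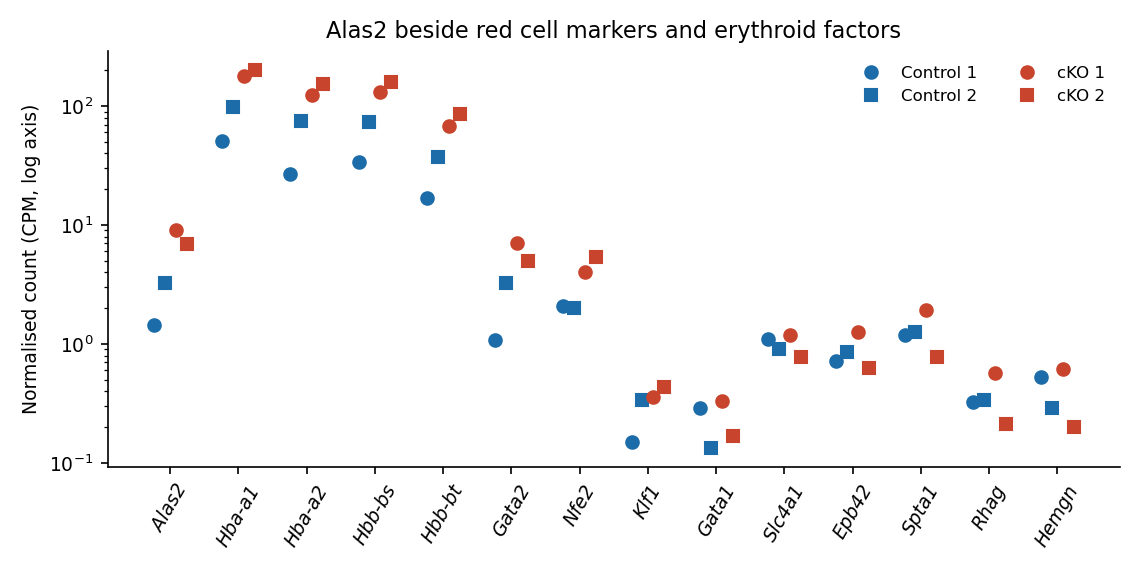
TMM-scaled CPM on a log axis for Alas2, the globin genes, erythroid transcription factors and other red cell genes in each library, Control in blue and cKO in red. Alas2, the globins, Gata2, Nfe2 and Klf1 have both cKO points above both Control points, and the genes to the right of these do not.

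Of 10 erythroid transcription factors tested, 1 rose, 0 fell and 9 did not pass, while 0.364% of all genes tested rose and 0.186% fell. Their median was 0.51 against 0.06 over all genes, and 9 were positive, against 20993 of the 38143 genes tested. In CPM 4 had both cKO libraries above both Control libraries and 0 had both below, against 18.0% and 13.3% of all genes tested. Gata2, a GATA factor of blood progenitors and also of endothelial and mast cells, had 1.07 CPM in Control 1, 3.25 in Control 2, 7.10 in cKO 1 and 4.94 in cKO 2. Its order of libraries was that of Alas2, and it rose with a log2 fold change of 1.48 (SE 0.36, edgeR adjusted p = 0.0105). Gata2 was called in 1 of 9 alternatives and moved from 0.87 without Control 1 to 2.46 without Control 2. Gata1, the GATA factor of the red cell line, was at 0.290 and 0.133 CPM in the Control libraries, against 0.333 and 0.168 CPM in cKO. Klf1, its partner at globin genes, was at 0.151 and 0.340 CPM in the Control libraries, against 0.356 and 0.437 CPM in cKO. Both were thus below 1 CPM in all libraries. Nfe2, chosen after its values were seen, had 2.07 CPM in Control 1, 1.99 in Control 2, 4.02 in cKO 1 and 5.43 in cKO 2 (1.22, edgeR adjusted p = 0.132).

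No marker of the other cell types passed the threshold. The lists for platelets and megakaryocytes (8 tested genes), muscle fibres (12), endothelium (10), fibro-adipogenic progenitors (9), macrophages (10), lymphocytes (8), neutrophils (8) and satellite cells (12) each had 0 called in either direction. Summed platelet marker TPM was 12.4 to 13.3 in Control and 13.5 to 21.6 in cKO, summed fibro-adipogenic marker TPM 1585 to 1764 and 1787 to 2014, summed macrophage marker TPM 43.4 to 50.7 and 61.4 to 79.5, and summed endothelial marker TPM 139 to 156 and 163 to 204. For these 4 lists both cKO libraries were above both Control libraries, with cKO 1 the highest. In TPM both cKO libraries were above both Control libraries for 32.0% of the 17210 genes compared. In CPM they were above for 3 of 8 platelet, 3 of 9 fibro-adipogenic, 4 of 10 macrophage and 6 of 10 endothelial markers. They were below for 1, 1, 1 and 0 of these. The shares over all genes tested were 18.0% above and 13.3% below. Muscle fibre markers summed lower in cKO, at 101 to 102 summed TPM in Control and 61.6 to 97.5 in cKO. Of these 12, 9 had both cKO libraries below both Control libraries in CPM, against 13.3% of all genes tested. Their median log2 fold change was -0.50, against 0.06 over all genes tested. The part of these cell types in the values of Alas2 or of other members was not tested.

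The genes whose profile over the 4 libraries was most like that of Alas2 were Trir, Efnb1, Gas2l1, Plk3 and Fnta. Likeness was the root mean square difference between log2(CPM + 1) profiles, each centred on its own mean, over 9668 genes whose mean reached 4 CPM and whose symbol did not start with Gm and digits or end in Rik, and it was 0.0426 for Trir, the closest, and 0.121 for Fnta. In this order Hba-a1 stood at 15, Hbb-bs at 28, Hbb-bt at 31 and Hba-a2 at 72. Of the enzymes of the chain, Alas1 stood at 1529, Ppox at 2103, Fech at 3542, Urod at 4029 and Alad at 4292. These places were lower than those of the globins but above the middle of the 9668 genes. Uros and Cpox were below the minimum CPM. These positions rest on 4 libraries and carry no test.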

How the data were processed

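RNA was measured in 2 Control and 2 Rbfox2 cKO libraries. Per the labels' protocols, 10 ng of RNA went into each SMART-Seq and MGI library. GRCm38, StringTie 1.3.6 and HISAT2 2.1.0 are listed in the submitters' processing notes without a role. The deposited tables hold estimated counts, already whole numbers, and TPM, a length-corrected abundance that the authors scaled to the same sum per library. In single-transcript genes over 200 counts, 98.7% to 98.9% of counts were within 1% of a constant times TPM times length. The counts may therefore derive from transcript coverage.

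The count comparison used R 4.3.3 and edgeR 4.0.16 (TMM, filterByExpr, robust quasi-likelihood test, Benjamini-Hochberg threshold 0.05) over 38143 genes, and the TPM comparison used limma 3.58.1 on log2(TPM + 1), keeping genes whose mean TPM reached 1. SE is the fold change over the square root of F. CPM use TMM-scaled totals. GENCODE M21 on GRCm38 gave coordinates. The scripts were tested on simulated data. A chi-square over degrees of freedom of 47.9 in Control and 85.6 in cKO showed the libraries of a group to be separate.

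The members and lists were chosen with earlier results of these data known. The 8 members are always named. For each of 5 related lists, up to 4 called genes with the smallest adjusted p are named, or the 3 with the highest CPM, together with the 5 genes most like Alas2. Ahsp and Fdx2 from the lists, another enzyme of the chain and another red cell marker are not analysed here. The alternatives were other size factors, filters, pseudocounts, DESeq2 1.42.0, a replicate block and each library left out.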

Additional observations from a re-analysis of the deposited data

How the results depend on the processing

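The 7 enzymes other than Alas2 were at 0 called in every alternative of the count test that was run, though the filter at 5 CPM tested only 5 of them, without Uros and Cpox. Of their 75 values under alternatives, including limma on TPM, 16 changed sign. With no library left out these were Uros with DESeq2 size factors (-0.023) and in DESeq2 (-0.014), Urod with library totals only (0.116), with the stricter CPM filter (0.082) and in limma (0.148), and Cpox with library totals only (0.040). With 1 library left out the log2 fold change ran from -0.044 to 0.454 for Alas1, -0.583 to 0.084 for Alad, -0.252 to 0.377 for Uros, -0.270 to 0.143 for Urod, -0.347 to 0.166 for Cpox and -0.072 to 0.555 for Fech. It also crossed 0 for Isca1 (-0.808 to 0.325), Iscu (-0.546 to 0.082), Fth1 (-0.106 to 0.182), Ftl1 (-0.296 to 0.369) and Cp (-0.596 to 0.028). The cause was not tested.

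Over all genes, 210 were called. The number was 119 with DESeq2 size factors, 28 with low counts left unfiltered, 14 with the filter at 5 CPM, 92 in DESeq2, and 51 to 2267 with a library left out. With library totals only it was 282, and the median of all genes moved by 0.19. On TPM 53 genes were called, 102 with a pseudocount of 0.1, 24 with 5, 404 with no filter, and 18 to 608 with a library left out. Fits without a library leave 1 sample in a group, assumed to vary like the other group. With the replicate number as a block the count was 96, and 68 on TPM. The deviations of same-numbered libraries correlated at -0.21 over genes. They also share part of a library code that the labels do not explain, so the numbers were not taken as pairs. A block with crossed pairing, chosen after seeing the data, gave 243. Cpox had the fewest counts of the 7 enzymes, 127 to 189 per library.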
